A study of Mus musculus with 12 samples.

Results

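The megabase-range contacts of the Nanog −45 enhancer are three-way contacts in which this enhancer was seen together with at least 1 chromosome 6 fragment whose midpoint lay over 1 Mb away. They were selected by distance alone, from the 2 deposited tables of this viewpoint, 1 for naive and 1 for primed cells. In naive cells 12379 distinct fragment pairs out of 24352 met the rule, and in primed cells 12552 out of 21530. In either state together these were 24563 distinct pairs, of which 368 were seen in both states. As 85.1% of the naive and 86.3% of the primed pairs were seen once, this overlap cannot tell whether the states contacted different places. The overlap over all pairs of the viewpoint was not counted. The whole series holds 159167 fragment pairs over 46 tables.

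The data come from Tri-C. In this assay DpnII cuts the fixed chromatin, ligation joins fragments that were close together, and a biotinylated oligonucleotide pulls down the reads that carry a chosen viewpoint. Each count is a pair of other fragments of the same chromosome, called reporters, joined to the viewpoint in 1 read, and a read with more than 2 reporters gives several such pairs. The cells were J1, a mouse embryonic stem cell line, either naive (grown without serum with the inhibitors of 2i and with LIF) or primed (the same line moved to medium with Fgf2 and Activin A, without 2i and LIF). Both states had 3 biological replicates, captured with oligonucleotide pool 1, but a table carries no replicate, so every value below is that of 1 pooled table per state, and all intervals are 95% intervals that cover counting error only.

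Nanog encodes a homeodomain transcription factor of the naive pluripotency network, and its transcription falls as cells leave that state. Its known enhancers lie on both sides of the gene, and the −45 enhancer is on the low-coordinate side. Contacts of a locus generally become rarer with distance along the chromosome, while megabase-range contacts reflect how whole regions of a chromosome come near each other in the nucleus. A three-way read adds whether the 2 distant reporters came from the same place or from different places.

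The capture oligonucleotide is shown because it fixes the position from which all distances are counted. It spans chr6:122663539-122663638 (mm10, 100 bases, no DpnII site GATC inside), in the intergenic stretch 44.0 kb before the start of Nanog at 122707489.

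Nanog −45 enhancer oligonucleotide: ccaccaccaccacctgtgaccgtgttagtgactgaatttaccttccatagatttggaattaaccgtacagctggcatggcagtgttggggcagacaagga

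In naive cells 15062 of the 41081 counts of the viewpoint had a reporter over 1 Mb away, which is 36.7% (exact Clopper-Pearson interval 36.2 to 37.1%). In primed cells 15109 of 32749 did, or 46.1% (45.6 to 46.7%). The primed share was 1.26-fold the naive share (1.23 to 1.29), and the rise came with a fall of the counts whose farthest reporter was within 200 kb, from 55.0% to 42.7%. Among the counts with a reporter over 200 kb away, the megabase-range share was 81.4% in the naive and 80.5% in the primed table, which is a ratio of 1.01 (0.989 to 1.04). Measured against contacts beyond 200 kb, the megabase-range share therefore did not differ between the states beyond counting error. With 1 pooled table per state, library and cell state cannot be told apart. The same share from the other viewpoints of pool 1 with at least 400 counts went from 33.9 to 41.0% at Dnmt3a-116kb, from 22.6 to 29.9% at Sox2-SE, from 39.2 to 46.6% at Tdgf1-Lrrc2-SE and from 38.8 to 42.3% at cMyc-2. At Lefty1-2 it went from 34.9 to 30.3%, with a primed over naive ratio of 0.868 whose interval (0.735 to 1.02) includes 1.

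Reads were spread thinly. Of the distinct megabase-range pairs, 85.1% in naive and 86.3% in primed cells were seen once, and the mean was 1.22 and 1.20 counts per pair. Naive counts touched 12986 distinct distant fragments and primed counts 14372, with a median of 1 count per fragment in each state. Both states shared 2497 of these fragments, 19.2% of the naive and 17.4% of the primed ones. At so few counts per fragment, this overlap cannot tell whether the states contacted different places. Regions, not single fragments, therefore carry the comparisons below.

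Before any comparison of the states, 2 intervals stood apart from the rest of the chromosome. They were recognised after the values had been seen and are named here by the genes at their ends. The first lies between Ezh2 and Pdia4, chr6:47595271-47796140 (mm10), 75.0 Mb from the viewpoint on the low-coordinate side. The second lies between Hrh1 and Atg7, chr6:114483299-114643126, 8.10 Mb away on the same side. Ezh2 encodes the methyltransferase of Polycomb repressive complex 2, Pdia4 a protein disulfide isomerase, Hrh1 a histamine receptor and Atg7 an enzyme of autophagy.

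The Ezh2–Pdia4 interval held 628 naive counts, 4.17% of all megabase-range counts, and 138 primed counts, 0.913%, a naive over primed ratio of 4.56 (3.79 to 5.53). The Hrh1–Atg7 interval held 217 naive and 228 primed counts, a ratio of 0.955 (0.789 to 1.15). The first thus differed between the states and the second did not beyond counting error. In the first, 479 of the naive and 101 of the primed counts had both reporters inside the interval, and only 11 and 2 of these were neighbouring fragments that touch across 1 cut site. In the second, 160 and 148 counts had both reporters inside, and 0 and 1 touched. The share of counts with both reporters far, within 100 kb of each other and not touching had a median of 14.8% over the 212 bins of 100 kb with at least 40 counts. The 5 bins with the highest shares, 57.6 to 75.5%, were those overlapping these intervals.

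Both intervals also stood apart in their DNA. Of the 185 distinct fragments counted in the Ezh2–Pdia4 interval, 18 were 175 bp and 15 were 205 bp long, and the 5 commonest lengths covered 37.3% of them. Of the 205 fragments of the Hrh1–Atg7 interval, 40 were 450 bp and 39 were 300 bp long, and 5 lengths covered 47.8%. Over all 24861 distant fragments the 5 commonest lengths covered 2.18%. In the older assembly NCBIM37, the only sequence of these intervals used here, 47.7% of the 50-base words between Ezh2 and Pdia4 and 82.0% of those between Hrh1 and Atg7 occurred more than once within their interval, against 1.38% in 150 kb around the viewpoint. The part of such repeated sequence in the counts of the intervals, and in the difference between the states at the first, was not tested. Counts with 1 reporter in the Ezh2–Pdia4 interval and the other within 1 Mb of the viewpoint numbered 128 for naive and 22 for primed cells, giving a ratio of 5.65 (3.58 to 9.33). Several results below are also given without the counts of both intervals.

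**Figure D1:**
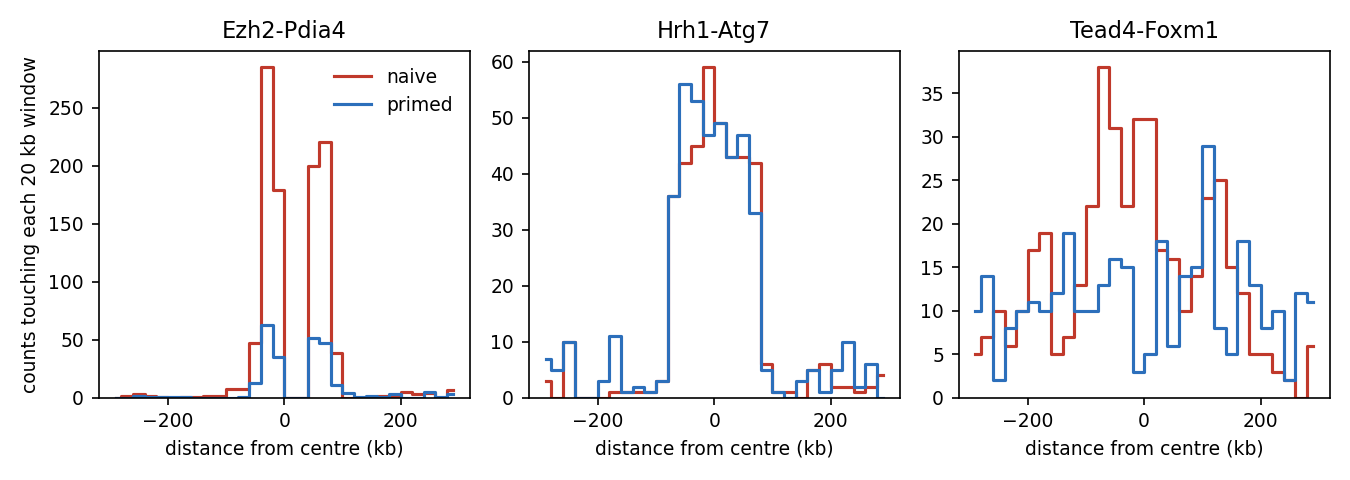
Counts touching each 20 kb window (vertical axis, scaled separately in each panel) against the distance from the centre of the interval in kb, for naive (red) and primed (blue) cells. The Ezh2–Pdia4 and Hrh1–Atg7 intervals rise abruptly from nearly 0, the first with a gap of 0 counts in its middle, while the region between Tead4 and Foxm1 has no such edges.

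Counts fell with distance on both sides of the viewpoint, but not evenly. On the high-coordinate side, where the last fragment counted lay 26.9 Mb away, the bin from 1 to 2 Mb was touched by 1578 naive and 1723 primed counts, that from 2 to 3 Mb by 1784 and 1052, and the 2 bins from 3 to 5 Mb together by 475 and 704. On the low-coordinate side the bin from 1 to 2 Mb was touched by 1359 and 1423 counts, and that from 2 to 3 Mb by 605 and 475. Per 1000 counts of the viewpoint and per Mb, naive cells had 43.4 counts from 2 to 3 Mb on the high side, above the 38.4 from 1 to 2 Mb. Primed cells had 32.1 and 52.6. The naive order of these neighbouring bins was thus the opposite of the primed order.

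Scaled to all counts of the viewpoint, primed cells exceeded naive cells in most distance classes. The largest primed over naive ratios were 1.86 (1.65 to 2.09) from 3 to 5 Mb on the high side and 1.83 (1.67 to 2.00) from 10 to 20 Mb on the low side. The class from 2 to 3 Mb on the high side was the only one of 15 whose interval lay below 1, at 0.740 (0.685 to 0.799). With classes set by the farther reporter and both sides together, primed cells had 7.95% of counts between 10 and 20 Mb against 4.89% in naive cells, 1.63-fold (1.53 to 1.72). Between 2 and 5 Mb the shares were 7.47 and 7.43%, a ratio of 1.00 (0.952 to 1.06). Beyond 50 Mb the ratio was 1.06 (1.00 to 1.13), but without the 2 intervals of repeated sequence it was 1.32 (1.24 to 1.41).

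The reading of these classes depended on the denominator. As shares of megabase-range counts, the class from 10 to 20 Mb remained higher in primed cells (13.3 and 17.2%, primed over naive 1.29, 1.22 to 1.37), and that from 2 to 5 Mb was lower (20.3 and 16.2%, 0.799, 0.757 to 0.843). The class from 1 to 2 Mb was at 1.06 (1.00 to 1.12), that from 5 to 10 Mb at 1.08 (1.01 to 1.15) and that from 20 to 50 Mb at 1.04 (0.988 to 1.09). Beyond 50 Mb primed cells were lower, at 0.843 (0.795 to 0.894), but at 1.02 (0.959 to 1.09) with both intervals left out. The classes from 2 to 5 Mb and from 10 to 20 Mb were then at 0.773 (0.732 to 0.815) and 1.25 (1.18 to 1.32), and the intervals of the other classes included 1.

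The share of megabase-range counts whose farthest reporter was over 10 Mb away was 51.1% in naive (50.3 to 51.9%) and 53.2% in primed cells (52.4 to 54.0%), and without the 2 intervals 49.6 and 53.4%. Without reporters under 1 kb apart it was 53.9 and 55.0%. The naive over primed ratio was then 0.978 with an interval (0.944 to 1.01) that includes 1, against 0.960 (0.930 to 0.991) over all megabase-range counts. A reporter on the low-coordinate side occurred in 58.4 and 59.1% of megabase-range counts, and the interval of the naive over primed ratio, 0.960 to 1.02, includes 1. Without the 2 intervals these shares were 55.9 and 58.1%, with a ratio of 0.963 (0.934 to 0.993). Within 1 to 26 Mb, where both sides of the chromosome exist, bins on the high side were touched 1.36 times as often as those on the low side in naive cells (1.31 to 1.41) and 1.24 times in primed cells (1.20 to 1.28).

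**Figure D2:**
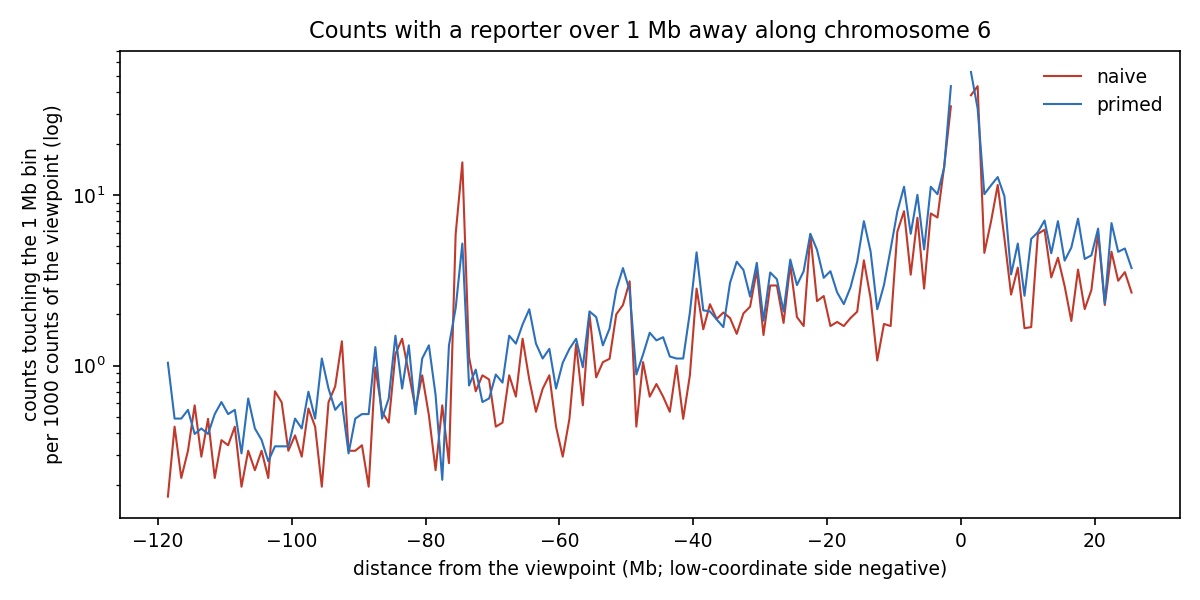
Counts touching each 1 Mb bin of chromosome 6 per 1000 counts of the viewpoint (log axis) against the distance from the viewpoint in Mb, with the low-coordinate side negative, for naive (red) and primed (blue) cells. The primed line lies above the naive line in 121 of the 143 bins, and among the 22 exceptions are the bin from 2 to 3 Mb on the high side (43.4 in naive, 32.1 in primed cells) and the Ezh2–Pdia4 interval near 75.0 Mb on the low side.

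The 2 reporters of a count were mostly close to each other when both were distant. In naive cells 8613 of the 15062 megabase-range counts (57.2%) and in primed cells 8845 of 15109 (58.5%) had both reporters over 1 Mb away, a naive over primed ratio of 0.977 whose interval (0.948 to 1.01) includes 1. Leaving out the 2 intervals of repeated sequence gave 55.8 and 57.9%, with a ratio of 0.963 (0.934 to 0.993). Of the counts with both reporters distant, 72.0% in naive cells (71.1 to 73.0%) and 66.9% in primed cells (65.9 to 67.9%) had reporters within 100 kb of each other. When the same reporters were paired with each other in all possible ways, 1.25% and 0.709% of pairings lay that close. Much of this closeness was on the smallest scale, since 40.1% of the naive and 38.1% of the primed pairs were fragments that touch across 1 cut site. An uncut site leaves such a pair too, and its part was not tested. With touching fragments left out, 53.3% (51.9 to 54.7%) and 46.6% (45.2 to 47.9%) remained within 100 kb.

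Reporters over 1 Mb apart made up 18.6% of the pairs with both reporters distant in naive cells (17.8 to 19.4%) and 23.4% in primed cells (22.5 to 24.3%). Of all counts of the viewpoint, such pairs rose from 3.90% in naive to 6.33% in primed cells, 1.62-fold (1.52 to 1.73), while pairs within 100 kb rose from 15.1 to 18.1%, 1.20-fold (1.15 to 1.24). The 2 ratio intervals do not overlap. Over all distances together, the primed excess was thus larger for reporters that lay apart than for reporters that lay together. It was seen from 1 to 10 Mb apart (6.80 and 8.15% of the pairs) and over 10 Mb apart (11.8 and 15.3%). With the 2 intervals of repeated sequence left out, the apart share was 19.7 and 23.6% and the within 100 kb share 71.0 and 66.7%, and the rises were 1.61-fold and 1.26-fold, again with intervals that do not overlap.

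Of the pairs over 1 Mb apart, 678 of 1602 in naive cells (42.3%) and 834 of 2072 in primed cells (40.3%) had their reporters on opposite sides of the viewpoint. All possible pairings of the same reporters gave 52.7 and 51.4%. Pairs 1 to 10 Mb apart were 36.6 and 34.8% of the pairs over 1 Mb apart, against 26.5 and 26.9% of all such pairings over 1 Mb apart. With the pairings made only from the reporters of the pairs over 1 Mb apart, the latter were 23.4 and 21.5%. Reporters that lay apart were therefore on the same side, and at a moderate distance from each other, more often than in the full set of pairings, in both states.

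The together share also changed with distance from the viewpoint. Of the megabase-range counts with their farther reporter between 1 and 2 Mb, 47.9% in naive and 47.2% in primed cells had both reporters distant and within 100 kb of each other. Between 10 and 20 Mb this was 35.4 and 35.3%. Beyond 50 Mb it was 36.4 and 28.8%, and without the 2 intervals 25.5 and 26.1%, so that the gap between the states at the largest distances rested on them. Between 2 and 5 Mb the shares were 44.4 and 41.4%.

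The share of megabase-range counts with reporters over 1 Mb apart did not differ in the same way at every distance. With the farther reporter between 1 and 2 Mb it was 1.02% in naive and 0.877% in primed cells, and between 10 and 20 Mb, where the primed excess of counts was largest, it was 16.9% in both, with a primed over naive ratio of 0.999 (0.865 to 1.15). The interval of the ratio lay above 1 between 2 and 5 Mb (4.69 and 5.97%, 1.27, 1.01 to 1.62), between 5 and 10 Mb (10.2 and 12.6%, 1.23, 1.01 to 1.49), between 20 and 50 Mb (14.6 and 18.7%, 1.28, 1.14 to 1.45) and beyond 50 Mb (17.7 and 28.1%, 1.59, 1.40 to 1.81). With both intervals of repeated sequence left out, the ratio beyond 50 Mb was 1.29 (1.14 to 1.47), and that between 5 and 10 Mb was 1.21 (0.989 to 1.48), which includes 1.

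**Figure D3:**
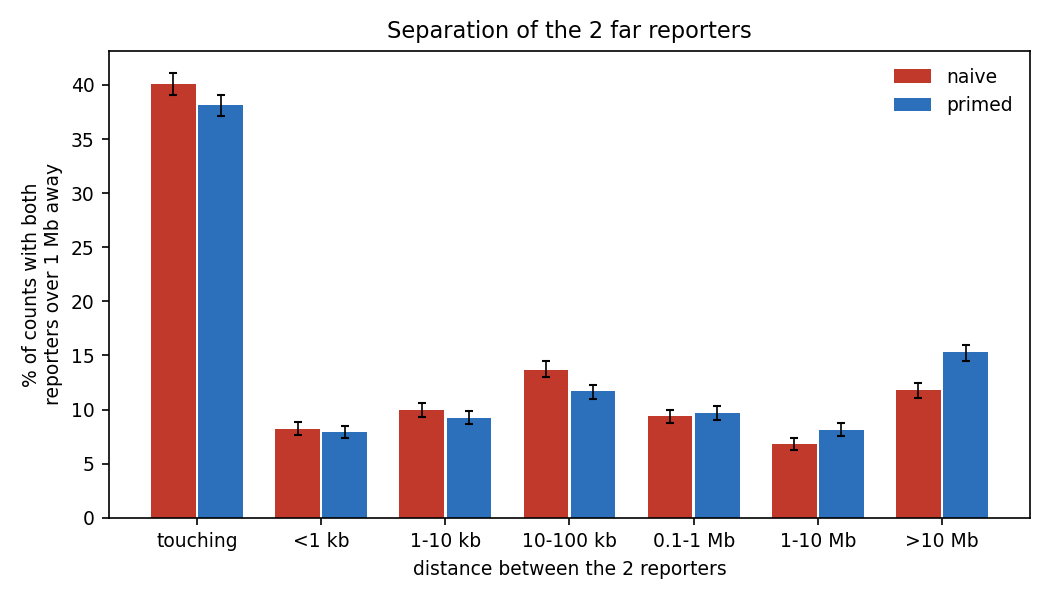
Percent of the counts with both reporters over 1 Mb away (vertical axis) by the distance between the reporters, for naive (red) and primed (blue) cells, with exact 95% counting intervals as error bars. Touching fragments are the largest class in both states (40.1 and 38.1%), and the classes over 1 Mb apart are higher in primed cells.

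Chromosome 6 was then read in 143 bins of 1 Mb counted outward from the viewpoint, of which 103 had at least 50 counts in both states together. The naive share of megabase-range counts was over 2-fold the primed share in 4 of these bins (3.88%) and under 0.5 of it in 8 (7.77%), with the share of a bin being its counts over all megabase-range counts of the state. The counting interval of the ratio lay above 1 in 12 bins (11.7%) and below 1 in 32 (31.1%). The balance between the states depended on the weight of repeated pairs and on the denominator. With each distinct pair counted once, 4 bins were over 2-fold higher in naive and 3 in primed cells, and as shares of all counts of the viewpoint 3 and 19. Without the 2 intervals of repeated sequence the numbers were 3 and 5.

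The highest ratio belonged to the bin chr6:47663540-48663539, 74 to 75 Mb away, with 638 naive and 170 primed counts and a ratio of 3.76 (3.17 to 4.49). The next bin outward, with Ezh2 and the end of Cntnap2, had 242 and 71 counts and a ratio of 3.42 (2.61 to 4.52). Both overlap the Ezh2–Pdia4 interval, and without the counts of both intervals they had 55 and 44 counts (1.30, 0.856 to 1.97) and 54 and 25 counts (2.24, 1.37 to 3.76). The third was chr6:29663540-30663539, 92 to 93 Mb away, whose most counted fragment was nearest to Ube2h, a ubiquitin-conjugating enzyme. It had 57 naive and 20 primed counts, a ratio of 2.86 (1.69 to 5.02). Of these counts 38 and 14 paired the bin with a fragment within 1 Mb of the viewpoint.

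At the other end was chr6:45663540-46663539, inside Cntnap2, a neuronal adhesion gene, with 11 naive and 43 primed counts and a ratio of 0.257 (0.119 to 0.506). The bin chr6:132663539-133663538, 10 to 11 Mb away on the high side and rich in Tas2r genes for bitter taste receptors, had 69 and 181 counts (0.382, 0.285 to 0.507). The bin chr6:111663540-112663539, 10 to 11 Mb away on the low side, had 70 and 158 counts (0.444, 0.330 to 0.592), and its most counted fragment lay in Rad18, a ubiquitin ligase of DNA damage tolerance. In the counts whose other reporter was within 1 Mb of the viewpoint the ratios of these 3 bins were 0.340, 0.352 and 0.510, and with each distinct pair counted once they were 0.262, 0.372 and 0.516. These are subsets of the counts by which the highest and lowest bins were picked, so they describe the bins and add no independent support.

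**Figure D4:**
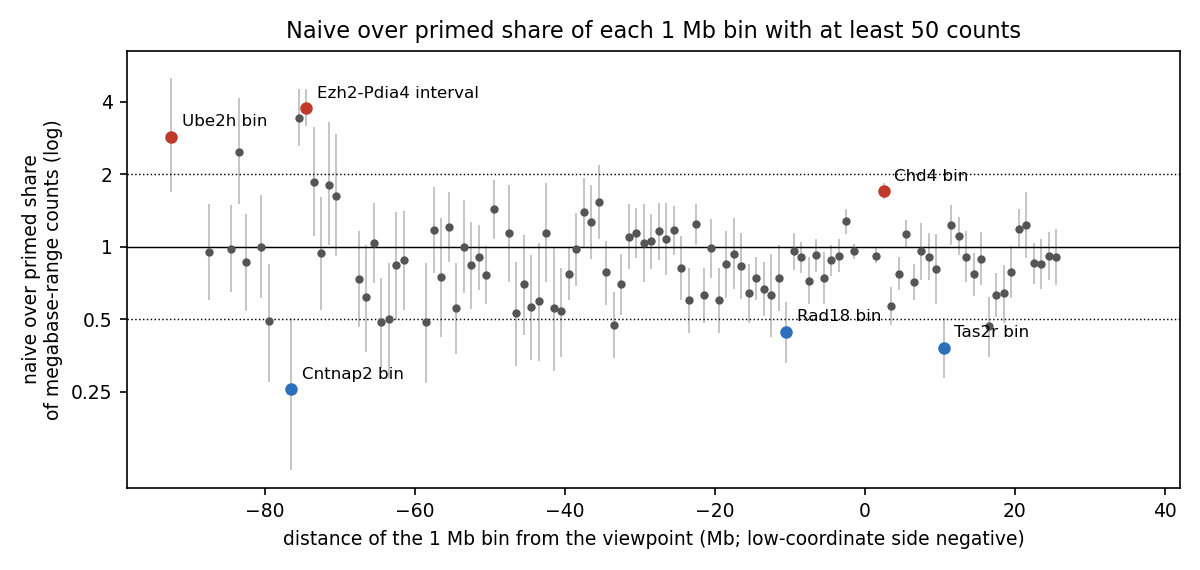
Naive over primed share of megabase-range counts (log axis) of each of the 103 bins of 1 Mb with at least 50 counts, against the distance from the viewpoint in Mb, with 95% counting intervals. Most bins lie between the dotted lines at 0.5 and 2, and the coloured bins are among those named, higher in naive (red) or in primed cells (blue).

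Nearest the viewpoint, the bin from 2 to 3 Mb on the high side (chr6:124663539-125663538) was the one with the largest difference in counts. It holds 40 protein-coding genes, among them Chd4, the ATPase of the NuRD complex, Ing4, a reader of H3K4 methylation, Zfp384, a zinc finger factor, the tetraspanin Cd9, the T cell coreceptor Cd4 and Vwf, the von Willebrand factor of endothelium. Its 1784 naive and 1052 primed counts were 11.8 and 6.96% of the megabase-range counts, a ratio of 1.70 (1.58 to 1.84). In counts whose other reporter was within 1 Mb of the viewpoint there were 717 and 472, a ratio of 1.48 (1.31 to 1.66). Both reporters lay inside the bin in 792 naive and 396 primed counts, of which 419 and 210 were touching fragments. With each distinct pair counted once the ratio was 1.69. The adjacent bin from 1 to 2 Mb, which holds Vmn2r vomeronasal receptor genes, had 1578 and 1723 counts and a ratio of 0.919 (0.858 to 0.984). Without the 2 intervals of repeated sequence the ratio was 0.952 (0.889 to 1.02), which includes 1. Its most counted 100 kb, chr6:124363539-124463538, had 442 naive and 286 primed counts, so that this part of the bin went the other way. On the low side the bin from 1 to 2 Mb was at 0.958 (0.889 to 1.03) and that from 2 to 3 Mb, with Kdm5a, an H3K4 demethylase, and Rad52, a recombination factor, at 1.28 (1.13 to 1.44). Without counts whose reporters lay under 1 kb apart, the latter was 1.10 (0.958 to 1.27), so that its naive excess did not hold beyond counting error.

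The Chd4 promoter is shown because it sits in that bin and holds 1 DpnII site, so that fragment ends lie inside it. The fragments on each side of this site still run past the ends of the promoter. Fragments overlapping it were in 12 naive counts, on 9 distinct pairs, and in 1 primed count. It was picked after these values were seen, and the promoters of Ing4 and Cd9 had 0 naive and 3 and 1 primed counts. GATC occurs in 45.6% of the 1545 RefSeq promoters of this length on chromosome 6. The sequence is from RefSeq on GRCm38.p6, the assembly of mm10, at chr6:125095731-125096030 on the plus strand, with the GATC site in capitals.

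Chd4 promoter: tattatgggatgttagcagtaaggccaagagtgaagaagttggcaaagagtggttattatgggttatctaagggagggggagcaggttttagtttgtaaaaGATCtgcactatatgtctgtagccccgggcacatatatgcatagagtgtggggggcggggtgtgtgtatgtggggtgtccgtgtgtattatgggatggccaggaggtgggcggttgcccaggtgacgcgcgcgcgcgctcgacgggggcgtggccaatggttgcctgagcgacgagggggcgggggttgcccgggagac

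Bins that stood above their surroundings were found by setting each against the mean of 2 neighbours on each side. Of 100 bins with a neighbour value, 11 in naive cells (11.0%) and 5 in primed cells (5.00%) were over 2-fold above their neighbours, and 11 and 3 with both intervals left out. The spread was wider in naive cells, where the 10th and 90th percentiles were 0.462 and 2.02, than in primed cells, where they were 0.546 and 1.55. Without the 2 intervals they were 0.498 and 2.03 against 0.581 and 1.56. Across the 100 bins, the values of the 2 states had a Spearman correlation of 0.734, a description over bins that share the viewpoint and the sequence of the genome.

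The Ezh2–Pdia4 bin was again first, at 7.78 in naive and 4 in primed cells. This rested on the interval, since with both intervals left out the bin was at 1.61 and 1.42, and the highest values of any bin were 2.78 and 2.43. Of the other 9 bins with the highest values over both states, those above 2-fold in both were chr6:34663540-35663539 near Agbl3 (40 naive and 42 primed counts, 2.54 and 2.37), chr6:82663540-83663539 with Tet3 and Lbx2 (116 and 151 counts, 2.14 and 2.52) and chr6:107663540-108663539, whose most counted fragment was nearest to Lrrn1 (170 and 230 counts, 2.20 and 2.04). In the Agbl3 bin 1 fragment pair alone gave 11 of the naive counts. Tet3 encodes an oxidase of 5-methylcytosine. Above 2-fold in naive and below it in primed cells, with the difference not tested, were chr6:66663540-67663539 with Il12rb2 (82 and 68 counts, 2.09 and 1.47), chr6:142663539-143663538 near Etnk1 (247 and 208 counts, 2.03 and 1.43) and chr6:72663540-73663539 near 4931417E11Rik (128 and 90 counts, 2.17 and 1.29). So was the Ube2h bin, at 2.78 and 1.18. The bin with Rybp, a subunit of Polycomb repressive complex 1, likewise stood 2.73-fold above its neighbours in naive (240 counts) and 1.63-fold in primed cells (194 counts).

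The bin with Tead4, Foxm1 and Pzp, 5 to 6 Mb away on the high side, had 470 naive and 417 primed counts, 2.32-fold and 1.47-fold above its neighbours. Its naive over primed ratio was 1.13, with an interval (0.989 to 1.29) that includes 1. The interval lay above 1 with each distinct pair counted once (1.21, 1.04 to 1.40), without the viewpoint's 10 kb bin (1.17, 1.02 to 1.35) and without the 2 intervals of repeated sequence (1.17, 1.02 to 1.34), but not without reporters under 1 kb apart (1.07, 0.909 to 1.26). Among the 10 bins of 100 kb with the most counts over 5 Mb away was chr6:128263539-128363538 with Tead4, Rhno1 and Tulp3 and the start of Foxm1, which held 138 naive counts on 108 distinct pairs and 51 primed counts on 36, a ratio of 2.71 (1.96 to 3.82). Counts with the other reporter within 1 Mb of the viewpoint were 42 and 19. Outside these 100 kb the bin of 1 Mb had 332 naive and 366 primed counts, so that its naive excess was not seen there. Tead4 encodes the transcription factor that sets trophectoderm fate in the early embryo, and Foxm1 one that drives mitotic genes. The adjoining 100 kb on the side of the viewpoint, overlapping Tead4, had 85 and 55 counts, a ratio of 1.55 (1.09 to 2.22). The next 100 kb outward, with the rest of Foxm1 and with Itfg2 and Fkbp4, had 81 and 80 counts, a ratio of 1.02 (0.736 to 1.40). The C2cd5 bin of 100 kb, 20.4 Mb away, had 97 and 53 counts (1.84, 1.30 to 2.62), and the Klrb1c bin, 6.10 Mb away in a cluster of natural killer cell receptors, had 90 and 80 (1.13, 0.826 to 1.54). Of these 10 bins, 5 overlapped the 2 intervals of repeated sequence.

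Gene content went weakly with the bins. The Spearman correlation over the 100 bins between the number of protein-coding genes and the counts over neighbours was 0.377 in naive and 0.352 in primed cells. The 20 bins with 15 or more genes had a median of 1.04 in naive and 1.17 in primed cells, and the 33 bins with 3 or fewer genes 0.732 and 0.768. The order of gene-rich above gene-poor bins was thus the same in both states.

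Genes were compared by the counts touching 50 kb on each side of their start, set against the median of all protein-coding genes on the same side and in the same range of distance. Both states together, 162 of the 1074 genes measured over 1 Mb away (15.1%) were over 2-fold above that median. A list of pluripotency and chromatin regulators and cell cycle or differentiation genes on chromosome 6 had 24 measured members, of which 8 were over 2-fold above it, and the median member stood at 1.26 against 1 for all genes. A list of genes restricted to other tissues had 28 measured members, of which 4 were over 2-fold above and the median stood at 0.765. Without the 2 intervals of repeated sequence, 7 regulators and 4 tissue-restricted genes were over 2-fold above their class, with medians of 1.16 and 0.777, beside 14.6% of all genes. Many of these genes had few counts. With at least 50 counts in both states together, 5 of the 8 regulators, 2 of the 4 tissue-restricted genes and 62 of the 162 genes remained. Below that were the regulators Trim24, Ezh2 and Kdm3a and the tissue-restricted Vmn1r4 and Cd8a. Trim24 and Kdm3a had 13 each, over a class median of 3 in each state. By state, the regulators' median was 1.35 in naive and 1.29 in primed cells, and the tissue-restricted genes' 0.688 and 0.652. Phc1 on the first list and Klrg1 and Vmn2r19 on the second lie within 1 Mb of the viewpoint and were left out. Members that neighbour each other share counts, so these numbers are not independent. Both lists were drawn up with earlier results of these data known, so their standing beside all genes is a description and no test.

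Of the regulators, the 5 with the most counts were Chd4 (215 naive and 102 primed counts, naive over primed 2.11, 1.66 to 2.70), Ing4 (205 and 111), Zfp384 (176 and 91), Cd9 (144 and 79) and Tead4 (146 and 50, 2.93, 2.11 to 4.12). The windows of Chd4, Ing4 and Zfp384 overlap. All 5 were higher in naive cells with intervals above 1, but only Tead4 stood far above its distance class, at 10.8-fold in naive and 2.17-fold in primed cells. The classes are wide, since Tead4 at 5.64 Mb and Cdkn1b at 12.3 Mb had the same medians, 13.5 naive and 23 primed counts. Genes near the inner edge of a class were thus set against genes much farther away. Chd4 was at 1.37 and 1.17, so that it shared the naive excess of its whole neighbourhood. Of the tissue-restricted genes, the 5 with the most counts were Cd4 (228 and 115 counts, 1.99, 1.58 to 2.51) and Vwf (111 and 70) in the same bin as Chd4, Vmn2r27 (92 and 160, 0.577, 0.441 to 0.750), A2m (81 and 77) and Klrb1c (62 and 82). Cd4, which marks T cells, was thus higher in naive cells, as were its neighbours Chd4 and Ing4, and differences among the 3 were not tested. Klrb1c was 4.59-fold above its class in naive and 3.57-fold in primed cells.

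A few further genes are named after their values were seen. Cdkn1b, the cell cycle inhibitor p27, had 64 naive and 53 primed counts at 12.3 Mb, 4.74-fold and 2.30-fold above its class. Ezh2 had 20 naive counts and 1 primed count, and its window extends into the Ezh2–Pdia4 interval. Pparg, a regulator of fat cells, had 1 naive and 17 primed counts at 7.30 Mb.

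Where 1 reporter was distant and the other within 1 Mb, the near reporter shows which local contact accompanied the distant one. There were 6449 such counts in naive and 6264 in primed cells. The viewpoint's own 10 kb bin held the near reporter in 23.4% of them in each state. The bin chr6:122700001-122710000, which holds both the −5 enhancer and the Nanog promoter, had 209 naive counts, 3.24% (2.82 to 3.70%), and 111 primed counts, 1.77% (1.46 to 2.13%), a ratio of 1.83 (1.45 to 2.32). None of the 39 bins of 10 kb with at least 50 counts was over 2-fold higher in naive cells (0%), and 1 was over 2-fold higher in primed cells (2.56%). That was chr6:122840001-122850000, with 20 naive and 54 primed counts and a ratio of 0.360 (0.204 to 0.611). The bin chr6:122650001-122660000, next to the viewpoint's own, was also higher in primed cells, with 330 and 416 counts and a ratio of 0.771 (0.665 to 0.892). The −5/promoter bin ranked 2 of 39, after the bin just before it, chr6:122690001-122700000, at 1.88 (1.49 to 2.39). This rank and the 0% of bins over 2-fold higher in naive cells rest on the minimum of 50 counts. Bins below it passed 2-fold in both directions. Examples are chr6:122470001-122480000 (38 naive and 10 primed counts, 3.69, 1.80 to 8.31) and chr6:122390001-122400000 (6 and 18, 0.324, 0.105 to 0.851). The bin of the Nanog gene body had 170 and 122 counts (1.35, 1.07 to 1.72), that of the +60 enhancer 178 and 125 (1.38, 1.09 to 1.75) and that of a further enhancer downstream, chr6:122810001-122820000, 68 and 53 (1.25, 0.857 to 1.82). In counts with both reporters within 1 Mb, the −5/promoter bin was touched by 5.80% in naive and 2.94% in primed cells. The naive excess at the −5/promoter bin was thus present also in counts that reached over 1 Mb away, and with both intervals of repeated sequence left out the ratio was 1.86 (1.47 to 2.36).

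**Figure D5:**
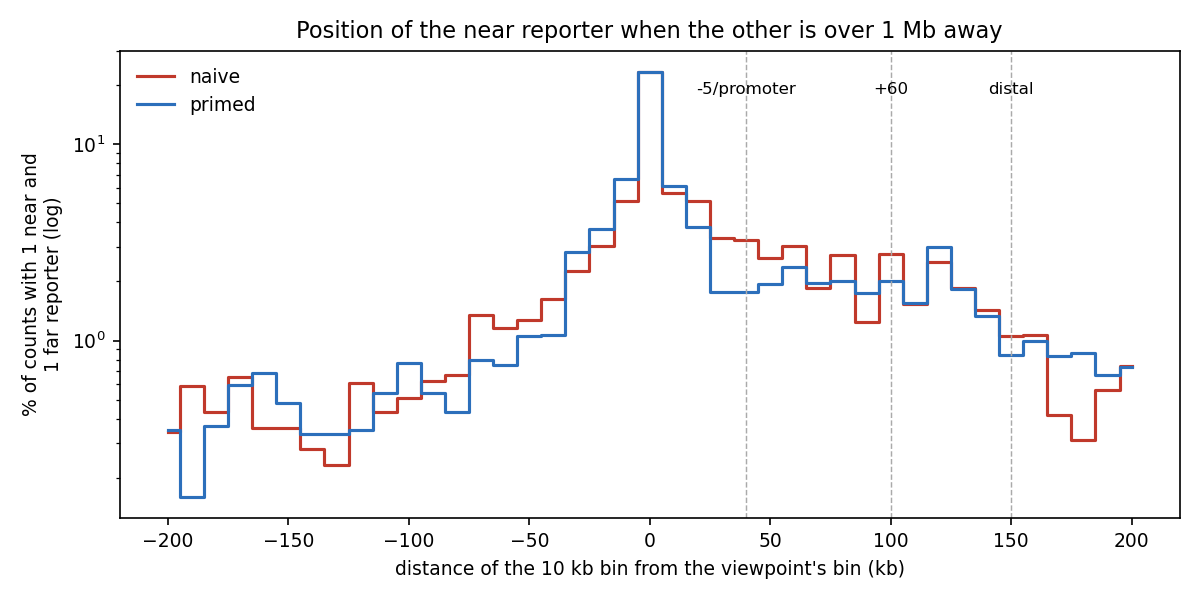
Percent of the counts with 1 near and 1 distant reporter (log axis) by the 10 kb bin of the near reporter, against its distance in kb from the viewpoint's own bin, for naive (red) and primed (blue) cells. Dashed lines mark the bins of the −5/promoter, the +60 and the distal downstream elements, and the naive line lies above the primed line at the first of these (3.24 and 1.77%).

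The fragment pairs with the highest counts added little. Each of the 10 most counted pairs was seen in 1 state only, with 11 to 18 counts. The first, with 18 naive counts, joined touching fragments 25.8 Mb away near Tmtc1. The only pair of the 10 with both reporters over 1 Mb away and on opposite sides joined a fragment near Bet1, close to the low end of the chromosome, with one near Lmntd1, 22.7 Mb away on the high side, in 13 primed counts. How duplicate reads were treated is not given in the sources used here, and the part of amplified copies in these counts was not tested.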

How the data were processed

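Tri-C was performed on naive and primed J1 cells, with 3 replicates per state in each of 2 oligonucleotide pools. The authors ran the CapCruncher pipeline in its capture mode on mm10, kept reads with 2 or more reporters on the viewpoint's chromosome, and deposited whole-number counts of fragment pairs, with no normalization and no replicate. Replicates were therefore taken as pooled and could not be tested. The viewpoint's pool came from the study's oligonucleotide list.

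Fragments were placed by their midpoints in Python 3.11.15 (numpy 2.4.6, scipy 1.17.1). Intervals are exact Clopper-Pearson for shares and a conditional binomial split for ratios. The calculations were tested on simulated bins with independent counts, so that test does not cover dependence between counts. A read with more reporters adds several pairs, so counts are not independent. Genes are from RefSeq GRCm38.p6. The strand, which sets the start, was taken for 151 of the 1103 genes from GENCODE vM1 by symbol. The regions, gene lists and tests were chosen with earlier results of these data known. The bins, pairs and genes described were chosen by rule, as the 10 bins of 1 Mb highest over their neighbours, the 3 highest and 3 lowest ratios, the 2 nearest bins on each side, the 10 leading fragment pairs and 100 kb bins, and the 5 members of each list with the most counts. Of the fragment pairs the text gives the range and 3 examples, and the genes, bins and promoters said to be picked after their values were seen fall outside the rule. Alternatives changed the weight of repeated pairs, the bins, the distances and the denominators.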

Additional observations from a re-analysis of the deposited data

How the results depend on the processing

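No paired analysis was possible because each state is 1 pooled table without replicate columns, so no replicate could be left out either. All ratios here are naive over primed. Leaving out the counts of the Ezh2–Pdia4 and Hrh1–Atg7 intervals was added after the data were seen. Of 74 alternative values of the shares, bin counts and list counts, 50 stayed within the interval of the reported ratio or within 1.5 times the reported number of bins or genes. Of 72 values of single named bins, 69 stayed within that interval, which does not mean keeping the same side of 1. With each distinct pair counted once, the intervals of the Tet3 bin (0.800, 0.610 to 1.05) and the Rybp bin (1.10, 0.891 to 1.37) came to include 1. That of the Etnk1 bin (1.30, 1.06 to 1.60) came to lie above 1. Some values could not change, since leaving out the viewpoint's 10 kb bin removes no count with both reporters distant.

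The ratio of the megabase-range share, 0.795, turned to 1.01 among counts with a reporter over 200 kb away. It was 0.872 with each distinct pair counted once, 0.813 without the viewpoint's 10 kb bin, 0.831 without reporters under 1 kb apart, 0.776 without the 2 intervals and 0.774 with a minimum of 0.5 Mb. Without reporters under 1 kb apart, the ratio of the share with both reporters distant was 0.945 and of the share within 100 kb 1.20. Without the 2 intervals, that of the share over 10 Mb away was 0.928.

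The number of bins over 2-fold higher in primed cells, 8, was 3 with each pair counted once, 5 without the 2 intervals, 18 with bins of 500 kb, 2 with bins of 2 Mb, 13 at a minimum of 20 counts and 19 as a share of all counts. The number higher in naive cells, 4, was 2 with bins of 2 Mb and 7 at a minimum of 20 counts. Bins over 2-fold above their neighbours numbered 20 (naive) and 9 (primed) with 500 kb bins, 3 and 1 with 2 Mb bins, and 3 in primed cells with each pair counted once, without the 2 intervals, or with 5 neighbours on each side. The cause of these shifts was not tested. The reported numbers of bins leave out bins with fewer than 50 counts.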
